A study of Mus musculus with 14 samples.

Results

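The replication-dependent histone genes are the clustered genes that make the bulk of the histone proteins, the H1 linker histones and the core histones H2A, H2B, H3 and H4. They were taken by gene symbol: the older Hist1h to Hist4h names, the current H2ac, H2bc, H3c and H4c names, and H1f1 to H1f6. Of 64 genes with such a name among 40800 genes in the table, 46 held at least 140 reads summed over 14 libraries and were described here. They were 2 H1, 13 H2A, 12 H2B, 11 H3 and 8 H4 genes. Of the other 18 names, 2 had no read. H4c1 was the lowest member with 140 reads, and the highest gene left out had 129.

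Core histones form the spool on which DNA is wound, and H1 binds the DNA entering and leaving it. Cells make most of this protein in S phase, when DNA is copied. The replication-dependent genes lie close together in clusters, mostly lack introns, and their mRNAs usually end in a stem-loop, bound by SLBP, in place of a poly(A) tail. When DNA synthesis stops, these mRNAs are known to be degraded quickly. Some of the genes can also be read into longer, polyadenylated transcripts, as is known of differentiating and resting cells.

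The cells were mouse embryonic fibroblasts (MEFs), connective tissue cells cultured from embryos, and the series asks about autophagy and nutrient loss. Control cells (0 h) grew in complete high-glucose medium with fetal bovine serum. Cells of the amino acid starvation groups were kept for 3, 6 or 12 h in medium free of amino acids, and cells of the glucose starvation groups for 3, 6 or 12 h in medium free of glucose, both with dialyzed serum. Each of the 7 groups had 2 libraries of total RNA. All starved cells were frozen in dialyzed serum and the control in ordinary serum without a change of medium, so starvation and handling cannot be told apart in a comparison with the control, whereas both starvations shared the handling. The labels do not state that replicates were separate cultures, so p-values rest on differences between these particular libraries, and part of those may be technical. Strain, passage and sex were not given in the labels used here.

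Libraries held 35270751 to 55349673 reads, of which 833 to 2083 came from the 46 members (20.0 to 54.7 CPM by library total, CPM being reads scaled to a common library size). These totals take 1 transcript row per gene, the one with the most reads. With all rows of a gene summed, class sums in CPM were 0.49 to 0.62 times those given here. Of 12 fibroblast markers 11 were above a mean of 1 CPM, the exception being Thy1 at 0.0043. Their summed level was 8140 to 8946 CPM in the control, 2402 to 2615 after 12 h without amino acids and 5891 to 5897 after 12 h without glucose. Of markers of 7 other cell types, those at 0 included Adgre1 and Tyrobp (macrophage), Hbb-bs (erythroid) and Cidec (adipocyte), and Tubb3 (28.5 CPM), Kdr (16.1) and Csf1r (15.1) were the highest besides Map2. The 5 endothelial markers, of which Kdr alone was above 1 CPM, summed to 4.21 to 5.08 CPM in the control and 12.6 to 23.6 in the starved libraries. The 5 skeletal muscle markers summed to 4.66 to 4.78 in the control and 1.32 to 1.48 after 12 h without amino acids. The 5 neural ones summed to 54.7 to 54.9 in the control and 34.2 to 34.6 at that time. Without glucose the neural sum was higher, at 73.1 to 73.2 after 6 h and 63.8 to 65.1 after 12 h. The 6 macrophage markers summed to 14.4 to 14.9 in the control. After 3 h they stood at 21.5 to 23.9 without amino acids and 20.3 to 21.1 without glucose. Whether these shifts bear on the histone genes was not tested. In bulk RNA, fewer cells in S phase and less histone RNA per cell cannot be told apart.

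The stem-loop that ends these mRNAs lies in the counted transcript of 33 members, 24 to 58 bases after the stop codon. It took 7 forms, of which 1 was shared by 21 members of H1, H2A, H2B and H3. All 7 H4 genes with a stem-loop had other forms. The search pattern fixed or limited nearly all bases of the stem-loop, so likeness between members is no result. Whether its form bears on the levels was not tested. Examples are given below in capitals, with 5 flanking bases on each side.
H1f2: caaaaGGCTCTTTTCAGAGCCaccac
H2bc11: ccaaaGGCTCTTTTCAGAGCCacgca
H2bc12: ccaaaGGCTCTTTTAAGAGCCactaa
H3c14: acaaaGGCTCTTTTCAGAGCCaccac
H3c8: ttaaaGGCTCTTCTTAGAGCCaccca
H4c18: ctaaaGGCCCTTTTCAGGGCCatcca
H4c11: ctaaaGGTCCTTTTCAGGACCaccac
H1f2, H2bc11 and H3c14 carry the same 16 bases.

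What the counted transcripts hold differed more. In 17 members the transcript ended within 100 bases of the stem-loop and in 9 it held the coding part alone. In 16 it ran at least 100 bases past the stem-loop, as in H1f2 (840 bases past it), H2bc9 (1214) and H3c14 (1162). The other 4 (H2bc4, H2bc21, H2bc23 and H2bc24) had long models in which the stem-loop was not found. The 20 long transcripts held 57.6% of the members' CPM in the control. Whether the libraries were selected for poly(A) is not given in the sources used here, so how far stem-loop-ended mRNA was captured is unknown.

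Promoters were read for 41 members (42 windows of 250 bases before the start, GRCm38.p6, RefSeq). Letters were searched on both strands and at any place in the window, so a hit need not act as a box. Overlapping windows of divergent genes can count the same letters for both genes. The CCAAT box (CCAAT) was in 81.0% of the members' windows against 33.9% of all 32851 windows. It was in 13 of 13 H2A and 10 of 10 H2B windows and in 2 of 8 of H4. The TATA box (TATAAA) was in 42.9% against 12.4%, and the octamer (ATTTGCAT) in 16.7% against 1.60%, all 7 of them H2A or H2B genes. The windows below belong to members whose levels moved most or apart, with these motifs in capitals.
H1f2 (chr13:23738557-23738806, + strand): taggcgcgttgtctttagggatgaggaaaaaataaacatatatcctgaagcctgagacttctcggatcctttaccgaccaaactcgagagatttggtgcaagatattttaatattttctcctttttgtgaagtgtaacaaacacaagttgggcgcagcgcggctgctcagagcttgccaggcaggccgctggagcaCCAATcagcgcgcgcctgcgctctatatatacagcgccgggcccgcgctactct
H2bc11 (chr13:22042948-22043197, + strand): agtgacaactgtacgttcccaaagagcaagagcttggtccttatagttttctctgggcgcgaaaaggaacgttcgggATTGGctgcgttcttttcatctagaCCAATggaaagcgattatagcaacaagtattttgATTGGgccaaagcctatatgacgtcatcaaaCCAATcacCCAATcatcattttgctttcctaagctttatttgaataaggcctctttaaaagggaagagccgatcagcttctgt
H2bc12 (chr13:22035571-22035820, + strand): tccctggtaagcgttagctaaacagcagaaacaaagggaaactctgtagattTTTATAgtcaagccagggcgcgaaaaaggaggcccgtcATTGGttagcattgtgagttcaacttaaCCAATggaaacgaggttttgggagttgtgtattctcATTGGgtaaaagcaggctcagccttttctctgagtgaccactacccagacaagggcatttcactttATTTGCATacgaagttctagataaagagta
H2ac12 (chr13:22035644-22035893, - strand): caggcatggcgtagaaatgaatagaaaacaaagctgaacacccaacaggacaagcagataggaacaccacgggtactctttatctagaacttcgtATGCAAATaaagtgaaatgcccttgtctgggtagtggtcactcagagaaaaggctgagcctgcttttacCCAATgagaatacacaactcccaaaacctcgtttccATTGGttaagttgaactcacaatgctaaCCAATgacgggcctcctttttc
H3c14 (chr3:96246435-96246684, + strand): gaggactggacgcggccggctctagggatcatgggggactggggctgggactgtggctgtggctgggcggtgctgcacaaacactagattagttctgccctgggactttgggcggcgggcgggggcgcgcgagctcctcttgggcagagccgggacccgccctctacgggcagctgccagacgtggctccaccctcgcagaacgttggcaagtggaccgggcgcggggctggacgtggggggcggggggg
H2bc12 and H2ac12 are transcribed away from each other, and their windows overlap and show shared DNA from both strands. The H3c14 window held none of the 3 motifs.

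Members that are near copies share reads. H2bc23 and H2bc24 differed by 1.92% of their counts, H2ac23 and H2ac24 by 2.23%, H2ac18 and H2ac19 by 3.10% and H4c17 and H4c18 by 4.41%, and each such pair is 1 measurement rather than 2. In 26 members at least 50% of all 75-base words also occur in another histone gene, so their single values are uncertain. H2bc21 shares 0% and H1f2 6.66%, so few or none of their reads can be shared in this way. Levels below are CPM scaled by the trimmed mean of M-values (TMM), and changes are log2 fold changes from edgeR's quasi-likelihood test. Standard errors (SE) were computed as the absolute change divided by the square root of that test's F statistic, so they are approximate. Calls were made where the p-value, adjusted by Benjamini and Hochberg's method across the 17696 genes that entered the fit, was under 0.05. All 46 members passed the filter on low counts.

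Over all members, summed CPM was 41.0 and 37.5 in the control. It was 41.7 and 44.1, then 31.3 and 37.8, then 28.4 and 33.6 after 3, 6 and 12 h without amino acids. Without glucose it was 44.2 and 58.6, then 37.0 and 38.3, then 20.4 and 22.1. The glucose libraries at 12 h were the lowest of all 14 and those at 3 h included the highest. Most of the gap between both starvations at 12 h lay in H1f2 alone. Its mean was 10.5 CPM without amino acids and 1.32 without glucose, against 8.81 in the control. These sums carry no test. Near copies such as H2bc23 and H2bc24 enter these and all later sums as separate rows, so shared reads may be counted more than once.

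**Figure D1:**
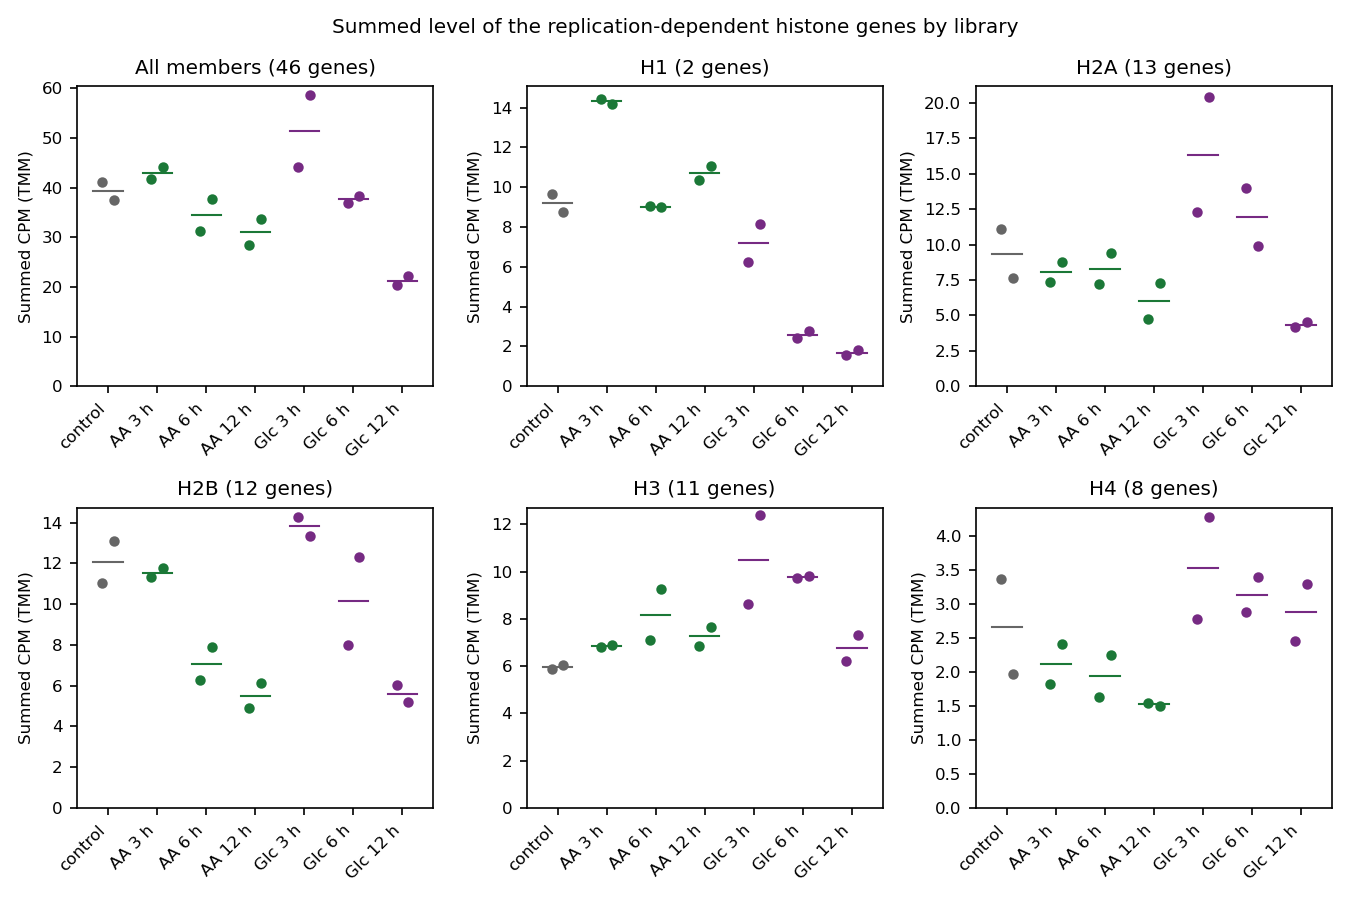
Summed CPM (TMM-scaled, y axis from 0) of all 46 members and of each histone class in every library (points) with the group mean (line), for the control, amino acid (AA, green) and glucose (Glc, purple) starvation. The H2B sum was 5.50 and 5.60 CPM on average at 12 h of both starvations against 12.1 in the control, while the H1 sum was below 3 CPM in the 4 libraries of 6 and 12 h without glucose.

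By class, and also without a test, the 2 H1 genes summed to 9.22 CPM in the control, to 14.3 after 3 h and 10.7 after 12 h without amino acids, and to 7.20, 2.59 and 1.68 along glucose starvation. The 12 H2B genes summed to 12.1 CPM in the control and to 11.5, 7.08 and 5.50 without amino acids against 13.8, 10.1 and 5.60 without glucose. The 13 H2A genes went from 9.37 to 8.09, 8.30 and 6.02 without amino acids, and to 16.3, 12.0 and 4.36 without glucose. Control libraries differed here (11.1 and 7.64). The 11 H3 genes stood at 5.97 CPM in the control and between 6.78 and 10.5 in the 6 starved groups. The 8 H4 genes, the lowest class, stood at 2.66 in the control, with libraries at 3.36 and 1.97, and their starved means lay between 1.52 and 3.52.

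Per kilobase of transcript, H1f2 was the highest member over all libraries (4.78 CPM per kb), followed by H2bc12 (3.08), H3c10 (2.56), H2ac12 (2.48) and H2ac13 (2.21). H2ac6 was the lowest (0.129). This order depends on the length of the counted transcript, which was 405 bases for H2ac12 and 2482 for H2ac6. Shared reads may bear on it too. Of the 75-base words of H3c10, H2ac12 and H2ac13, 93.5%, 90.0% and 83.4% occur in another histone gene. The replication-independent H3.3 gene H3f3b, whose mRNA is polyadenylated, stood at 588 and 642 CPM in the control, above the sum of all 46 members.

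Against the control, 29 of 46 members were called in at least 1 of 6 comparisons: 1 of 2 H1, 10 of 13 H2A, 11 of 12 H2B, 6 of 11 H3 and 1 of 8 H4 genes. The share of all genes called in at least 1 of these 6 was not computed. It cannot be below 66.9%, the share at 12 h without amino acids alone, so 29 of 46 is no excess over all genes. Of the members, only H2ac12 and H1f2 were called in both directions. In each of the 12 comparisons a smaller share of members (6.52% to 43.5%) than of all genes (43.3% to 68.4%) was called. Members hold fewer reads than most genes tested, and the part of depth in this was not tested. Near copies such as H2bc23 and H2bc24 enter these and later counts as separate members. Of 132 calls over all 12 comparisons, 49 held whichever single library of the groups compared was left out, 15 of them higher and 34 lower. Calls named below held in this way unless the library that ends them is named.

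**Figure D2:**
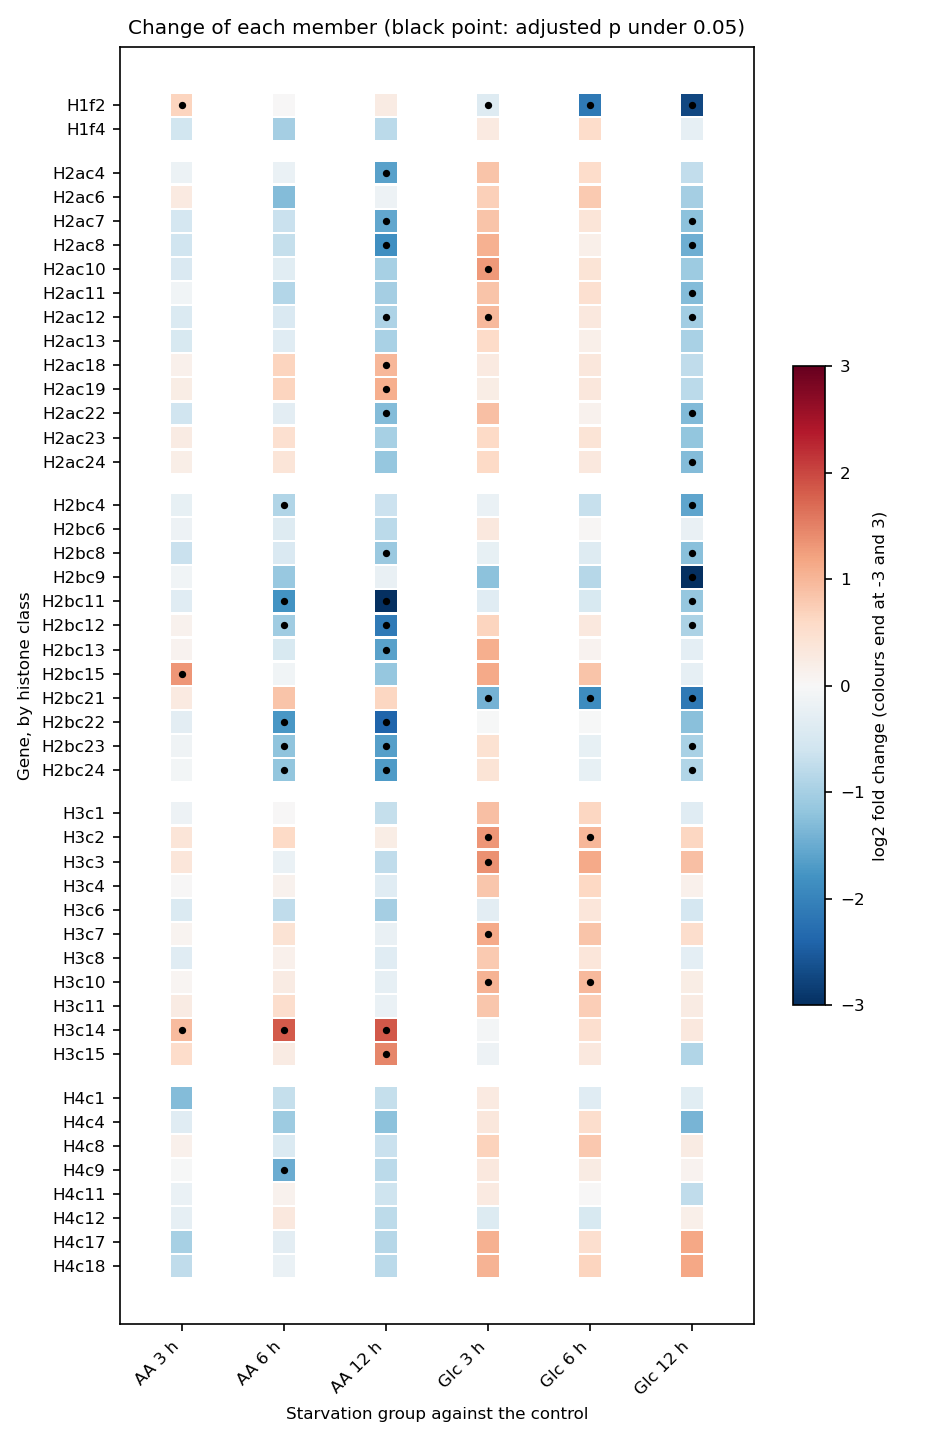
log2 fold change of each of the 46 members (rows, by class) in the 6 starvation groups against the control (columns), with colour from blue (lower) to red (higher) and a black point for an adjusted p under 0.05. H2B genes had negative values in both 12 h columns apart from H2bc21 without amino acids (0.63), while most H2A and H3 genes were on the higher side after 3 h without glucose.

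After 3 h without amino acids 3 members rose and 0 fell, with values over the 46 members from -1.31 to 1.32. Of all genes tested, 27.9% were higher, 32.1% lower and 60.0% either way in this comparison. H1f2, which encodes the linker histone H1.2, stood at 9.11 and 8.50 CPM in the control and at 14.3 and 13.8 after 3 h. Both starved libraries were above both controls, and the rise was 0.67 (SE 0.13, edgeR adjusted p = 3.7e-05). The later libraries, at 8.88 and 8.78 (6 h) and 10.1 and 10.9 (12 h), were not called against the control. H3c14 (log2 0.94) and H2bc15 (1.32) were also called, but H3c14 lost the call without any 1 of the 4 libraries, and H2bc15 without either control library or AA 3 h replicate 2. The count was 1 without either control library or AA 3 h replicate 2. No member was lower by edgeR: 0 at an unadjusted p under 0.05 as well, and 0 by DESeq2.

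After 6 h without amino acids 7 members fell and 1 rose, against 33.3% of all genes lower and 32.3% higher (65.6% either way). Of the 7, 6 were H2B genes and the seventh was H4c9. H2bc11 fell from 0.938 and 1.23 CPM to 0.307 and 0.308, with no overlap, a change of -1.80 (SE 0.47, edgeR adjusted p = 0.00122). The near-identical H2bc23 and H2bc24 fell by 1.20 (SE 0.35) and 1.19 (SE 0.36) on the log2 scale. H2bc12, H2bc22, H2bc4 and H4c9 were called too (-1.07, -1.75, -0.90 and -1.48), and all 4 lost the call without AA 6 h replicate 1. The count without that library was 5. The gene that rose was H3c14. The median over members was -0.34 against -0.01 over all genes.

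At 12 h without amino acids 12 members fell and 4 rose, where 32.0% of all genes were lower, 34.9% higher and 66.9% either. Those that fell were 7 of 12 H2B and 5 of 13 H2A genes, all on chromosome 13. None of the H1, H3 and H4 genes was lower by edgeR (0 also at an unadjusted p under 0.05, and 0 by DESeq2). H2bc11 reached 0.0813 and 0.132 CPM (4 and 7 reads against 43 and 56 in the control), a change of -3.30 (SE 0.54, edgeR adjusted p = 4.0e-06). This was the largest fall of any member in that group. H2bc12, which had the most CPM per kilobase of the core histone genes, went from 1.46 and 1.88 CPM to 0.407 and 0.359. Its change was -2.12 (SE 0.34, edgeR adjusted p = 3.1e-06). Libraries did not overlap for either gene.

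H2bc22 changed by -2.39 (SE 0.69) with 6 and 5 reads left, and H2bc23 and H2bc24 by -1.66 and -1.71 (SE 0.37 each). The 5 H2A calls (H2ac4, H2ac7, H2ac8, H2ac12 and H2ac22, -1.84 to -0.94) and those of H2bc8 and H2bc13 were each lost without AA 12 h replicate 1, the library with the fewest reads for several of them. H2ac8 had 2 reads there and 24 in the other replicate. Of the 16 calls 6 held without any 1 library. The count was 7 without AA 12 h replicate 1 and 10 without control replicate 1. All 8 H4 genes had negative values (-1.24 to -0.62), of which 0 were called by edgeR, also at an unadjusted p under 0.05 and by DESeq2. The median over members was -0.81 against 0.06 over all genes.

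**Figure D3:**
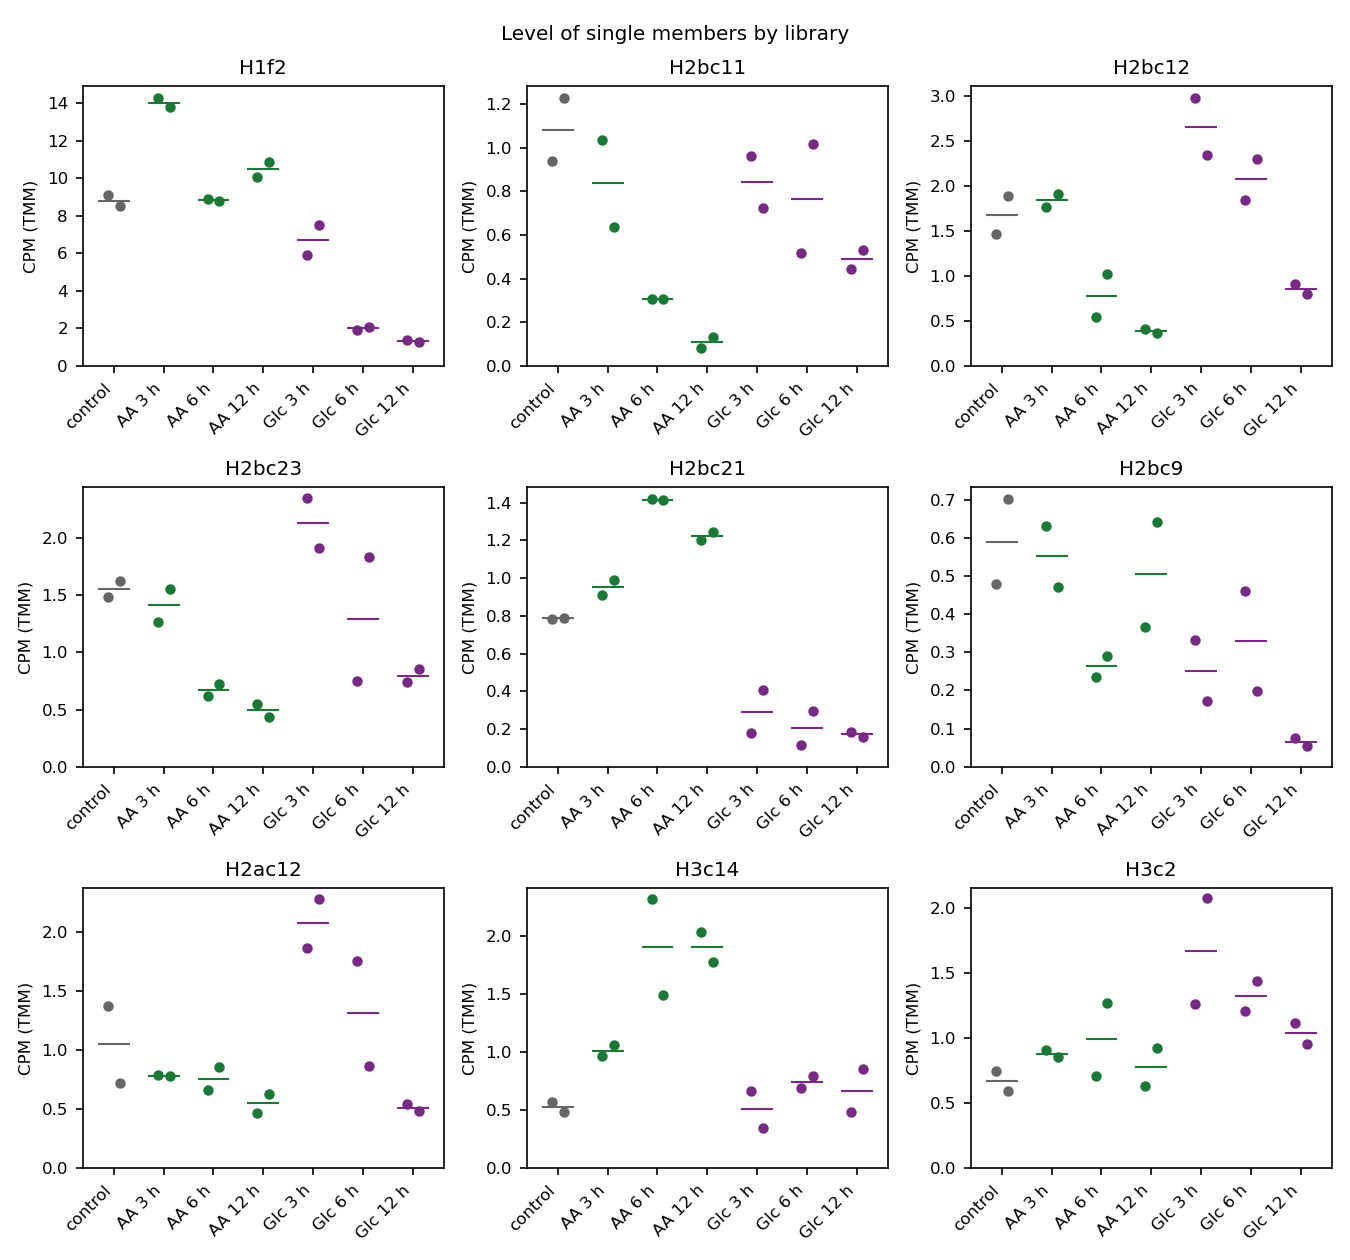
CPM (TMM-scaled, each y axis from 0) of 9 members in every library (points) with the group mean (line). H2bc11, H2bc12 and H2bc23 had lower means than the control at 6 and 12 h of amino acid starvation, H2bc21 and H1f2 at all 3 times of glucose starvation, and H3c14 was high at 6 and 12 h without amino acids (1.49 to 2.31 CPM).

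The 4 members that were higher at 12 h without amino acids were H3c14, H3c15, H2ac18 and H2ac19, all in the small cluster on chromosome 3. Of the 5 members there, the fifth, H2bc21, had a value of 0.63 that was not called. H3c14 encodes an H3.2 protein and stood at 0.567 and 0.482 CPM in the control. It was 2.31 and 1.49 after 6 h and 2.03 and 1.77 after 12 h without amino acids, with log2 changes of 1.84 and 1.85 (SE 0.36 each, edgeR adjusted p = 5.5e-05 and 4.7e-05). Without glucose its libraries were between 0.347 and 0.850, and it was not called at any time. H3c15 changed by 1.47 (SE 0.46), lost without control replicate 2. H2ac18 (0.98) and H2ac19 (1.09) lost the call without any 1 of the 4 libraries. Summed over the 5 genes of chromosome 3, levels were 2.96 CPM (SD 0.35, n = 2) in the control and 4.0, 5.73 and 6.88 along amino acid starvation. The 41 genes of chromosome 13 went from 36.3 to 38.9, 28.8 and 24.1.

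These chromosome 3 genes overlap other annotated transcripts. The H3c14 transcript lies wholly inside Gm20634 on the same strand, which also covers 90.3% of H2ac18, and H2ac18 and H2ac19 lie wholly inside Gm20633 and Gm20632 on the opposite strand. Gm20634 had 56 and 53 reads in the control and 183 and 162 after 12 h without amino acids (log2 1.51, SE 0.27), where H3c14 had 26 and 22 and then 100 and 94. Gm20632 changed by 1.31 (SE 0.36) and Gm20633 by 0.98 (SE 0.35). Reads of the histone mRNA and of the longer transcripts cannot be told apart in these counts, and strand use in counting is not given in the sources used here.

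After 3 h without glucose 6 members rose (2 H2A and 4 H3 genes) and 2 fell. Of all genes, 20.3% were higher, 23.1% lower and 43.3% either. The members' median was 0.59 against -0.04 over all genes, the only time against the control, besides 6 h without glucose, at which it was above 0. H3c2 rose from 0.741 and 0.591 CPM to 1.26 and 2.08 (log2 1.33, SE 0.37, edgeR adjusted p = 0.00403), and H2ac12 from 1.37 and 0.723 to 1.87 and 2.28 (0.98, SE 0.36). H2ac10, H3c3, H3c7 and H3c10 were the others (1.04 to 1.37). All 6 rises lost the call without Glc 3 h replicate 2, the library with the highest member sum. Some of them also lost it without control replicate 1, control replicate 2 or Glc 3 h replicate 1. Scaled to library totals instead, 3 members were called, 1 of them higher. All 13 H2A genes had positive values (0.22 to 1.31).

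H2bc21 and H1f2 went the other way. H2bc21, a chromosome 3 H2B gene with a long transcript and 0% of its 75-base words in another histone gene, stood at 0.785 and 0.788 CPM in the control and at 0.181 and 0.404 after 3 h without glucose (log2 -1.41, SE 0.47, lost without Glc 3 h replicate 1). It stood at 0.115 and 0.297 after 6 h and at 0.186 and 0.159 after 12 h, changes of -1.88 (SE 0.49) and -2.16 (SE 0.49, edgeR adjusted p = 0.00037). All 6 glucose libraries were below all others. Without amino acids it was between 0.909 and 1.42 CPM, above both controls in 6 of 6 libraries, but not called (0.27, 0.85 and 0.63). H1f2 fell from 9.11 and 8.50 CPM to 5.90 and 7.51 at 3 h (-0.39, lost without control replicate 1 or Glc 3 h replicate 1), then to 1.90 and 2.08 and to 1.37 and 1.27. The last 2 changes were -2.14 (SE 0.16, edgeR adjusted p = 3.0e-12) and -2.72 (SE 0.16, adjusted p = 1.0e-14), the smallest adjusted p-values of any member against the control. H1f4, the other H1 gene, was not called at any of these times (0.27, 0.55 and -0.26).

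After 6 h without glucose 2 members fell, H1f2 and H2bc21, and 2 rose, H3c2 (0.99) and H3c10 (0.98). The share of all genes was 24.2% lower, 23.3% higher and 47.5% either. H3c2 and H3c10 each lost the call without either control library, which left a count of 2.

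At 12 h without glucose 15 members fell and 0 rose, where 28.0% of all genes were lower, 30.4% higher and 58.4% either. For the 0 that rose, 0 were higher at an unadjusted p under 0.05 and 0 by DESeq2. Those that fell were H1f2, 6 of 13 H2A and 8 of 12 H2B genes. None of the 11 H3 and 8 H4 genes was lower by edgeR (0 also at an unadjusted p under 0.05, and 0 by DESeq2). H2bc9 was at 0.0743 and 0.0531 CPM (4 and 2 reads against 22 and 32 in the control), a change of -3.12 (SE 0.74, edgeR adjusted p = 0.00062). H2bc4 went from 1.77 and 1.53 CPM to 0.761 and 0.292 (-1.58, SE 0.39). Of the 15 calls, these 2, H2bc21 and H1f2 held without any 1 library, and the count was 8 and 9 without control replicates 1 and 2 and 7 and 8 without Glc 12 h replicates 1 and 2. The other 11 (-1.46 to -0.89) each lost their call without at least 1 of these libraries. The median over members was -0.79 against 0.01 over all genes. H3 genes had a median of 0.23 and H4 genes of 0.14.

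Between 3 and 12 h without glucose 20 members fell and 0 rose, where 25.5% of all genes were lower, 31.8% higher and 57.3% either, and 0 members were higher at an unadjusted p under 0.05 or by DESeq2. They held all 11 H2A genes of chromosome 13 (-2.53 to -1.54) and 7 of 12 H2B genes. H2ac8 went from 1.26 and 2.54 CPM to 0.334 and 0.319 (-2.53, SE 0.54, edgeR adjusted p = 0.0002), and H2ac12 from 1.87 and 2.28 to 0.539 and 0.478 (-2.02, SE 0.40, adjusted p = 7.1e-05). H2bc12 changed by -1.63 (SE 0.31). The count was 13 without Glc 3 h replicate 2, and 11 calls held without any 1 library.

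Between 3 and 12 h without amino acids 10 members fell and 1 rose (all genes 32.9% lower, 35.5% higher, 68.4% either), and 7 of the 10 were H2B genes. H2bc11 changed by -2.92 (SE 0.55), H2bc12 by -2.26 (SE 0.34) and H2bc15 by -2.47 (SE 0.63), and H2bc15 went from 0.606 and 1.04 CPM to 0.102 and 0.189. H1f2 changed by -0.42 (SE 0.12), which was not called when libraries were scaled to their totals. H3c14 was the 1 that rose (0.91), lost without either AA 3 h library or AA 12 h replicate 1.

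Comparing both starvations directly, where handling was shared, 3 members were higher and 12 lower without amino acids than without glucose at 3 h. The background was 26.7% higher, 27.7% lower and 54.4% either. H1f2 was higher by 1.06 (SE 0.13, edgeR adjusted p = 8.1e-08). H2ac12 differed by -1.41 (SE 0.38, edgeR adjusted p = 0.00248). The other 13 calls, among them H2bc21 (1.68, lost without Glc 3 h replicate 1) and the H4 pair H4c17 and H4c18 (-2.05 and -1.79, lost without any 1 library), were each lost without at least 1 library. The count was 3 without Glc 3 h replicate 2 and 6 without either AA 3 h library.

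At 6 h 3 members were higher without amino acids (H1f2, H2bc21 and H3c14) and 11 lower (background 31.5% higher, 32.3% lower, 63.8% either). H1f2 differed by 2.15 (SE 0.16), H2bc21 by 2.73 (SE 0.47), H3c14 by 1.34 (SE 0.36) and H2bc12 by -1.38 (SE 0.31, edgeR adjusted p = 0.00029). The remaining 10 each lost the call without at least 1 library, and the count was 5 without AA 6 h replicate 1 and 9 without Glc 6 h replicate 2.

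At 12 h 8 members were higher and 5 lower without amino acids (background 32.5% higher, 31.6% lower, 64.1% either). Those higher were H1f2, H2bc4, H2bc9 and all 5 genes of chromosome 3. H1f2, at 10.1 and 10.9 CPM against 1.37 and 1.27, differed by 2.97 (SE 0.16, edgeR adjusted p = 6.7e-16). H2bc21, at 1.20 and 1.25 against 0.186 and 0.159, differed by 2.79 (SE 0.47). H2bc9 differed by 2.90 (SE 0.74), H3c15 by 2.39 (SE 0.51), H2ac19 by 1.90 (SE 0.45), H2ac18 by 1.75 (SE 0.46) and H3c14 by 1.55 (SE 0.35). H2bc4 (0.94) lost its call without AA 12 h replicate 2 or Glc 12 h replicate 2. Of the 5 that were lower, H2bc11 differed by -2.14 (SE 0.58, edgeR adjusted p = 0.002). The others were H2bc12 (-1.16, lost without Glc 12 h replicate 1), H3c3 (-1.65), H4c17 (-2.02) and H4c18 (-1.97), the last 3 each lost without AA 12 h replicate 2. Of 13 H2A genes 0 were lower, also at an unadjusted p under 0.05 and by DESeq2. The 11 on chromosome 13 had values of -0.90 to 0.86 with a median of 0.09, none of them called.

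The change between 3 and 12 h was then compared between both starvations. It differed for 5 members, 4 with the higher value without amino acids and 1 with the lower (all genes 21.7%, 25.7% and 47.4% either). H1f2 fell less without amino acids (difference 1.91, SE 0.21, edgeR adjusted p = 1.1e-08) and H2bc11 fell more (-2.13, SE 0.74, adjusted p = 0.0179, lost without AA 3 h replicate 1 or AA 12 h replicate 1). H2ac12, H2ac18 and H2ac19 were the others (1.50, 1.88 and 1.90), and each lost the call without Glc 3 h replicate 2, among other libraries. The count was 1 without AA 3 h replicate 1, 2 without Glc 3 h replicate 2 and 3 without Glc 12 h replicate 1.

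H4 genes, which supply the histone paired with H3, were called against the control once, as H4c9 at 6 h without amino acids. H4c9, the most abundant H4 gene by CPM, stood at 0.785 and 0.416 CPM in the control, at 0.165 and 0.254 after 6 h and 0.366 and 0.321 after 12 h without amino acids, all below both controls. Its libraries at 3 h without amino acids (0.404 and 0.778) and without glucose (0.361 to 1.13 over all times) reached above the lower control. The call at 6 h was lost without control replicate 1 or AA 6 h replicate 1. H4c18 was at 0.174 and 0.241 CPM in the control, 0.102 and 0.132 after 12 h without amino acids and 0.316 and 0.637 after 12 h without glucose. The starved groups did not overlap each other at 12 h, but the values rest on 5 to 24 reads. H3c10, which had the most CPM per kilobase of the H3 genes, was at 0.741 and 0.854 CPM in the control. After 12 h it was at 0.447 and 0.869 without amino acids and at 0.966 and 0.903 without glucose. Of 9 H3 genes on chromosome 13, 0 were called against the control by edgeR at either 12 h time (0 also at an unadjusted p under 0.05, and 0 by DESeq2), with medians of -0.36 and 0.23. The H4 values at 12 h without amino acids had SEs from 0.54 (H4c9) to 0.92 (H4c8).

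Values of neighbouring genes were also set side by side, without a test. Of the members, 8 H2A and 8 H2B genes form divergent pairs, with starts of the counted transcripts 175 to 301 bases apart, as H2ac12 and H2bc12 do. At 12 h without amino acids the H2B gene had the lower value in 7 of 8 pairs, H2ac8 and H2bc8 being the exception (-1.84 and -1.10). In H2ac11 and H2bc11 (starts 269 bases apart) the values were -1.02 and -3.30, and in H2ac12 and H2bc12 they were -0.94 and -2.12. The same 2 pairs had, at 12 h without glucose, -1.31 and -1.15, and -1.03 and -0.96. The difference within a pair was not tested. The near copies H2bc23 and H2bc24 count as 1 measurement, as do H2ac23 and H2ac24. Of the 75-base words of H2ac11 and H2ac12, 77.6% and 90.0% occur in another histone gene. For H2bc11 and H2bc12 these shares are 50.4% and 72.6%, so part of their reads may belong to other genes.

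**Figure D4:**
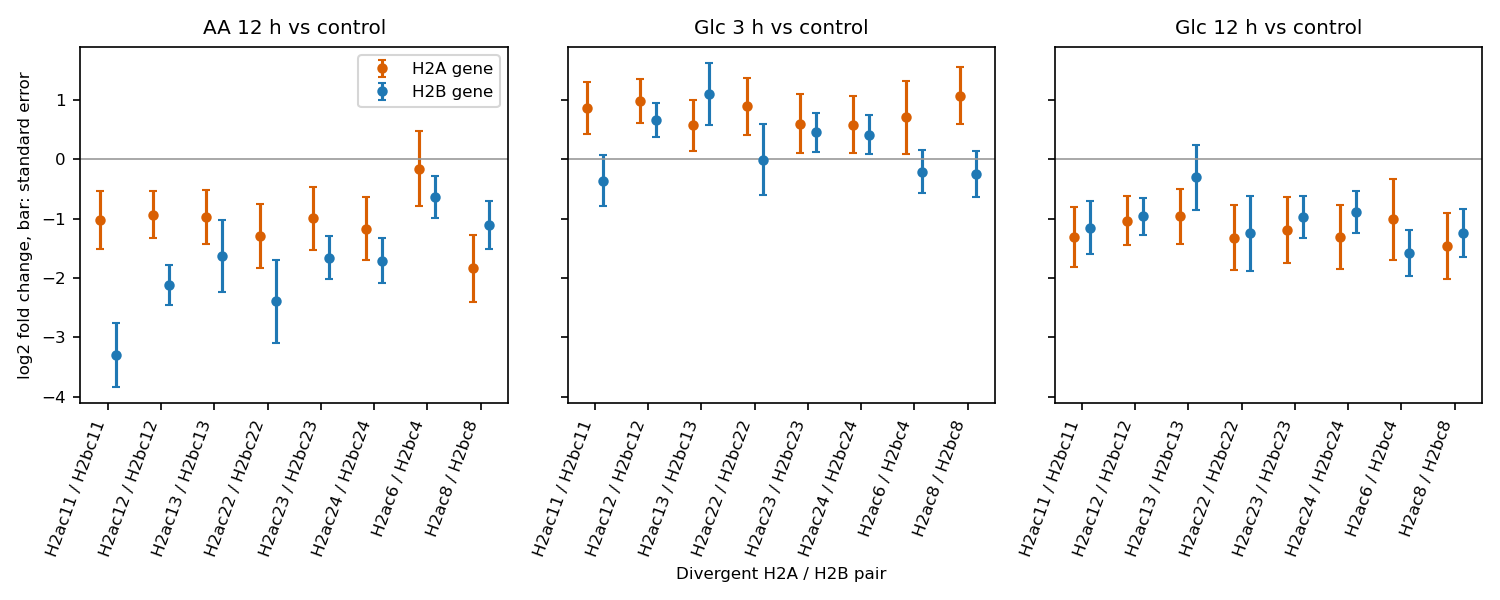
log2 fold change against the control of the H2A gene (orange) and the H2B gene (blue) of 8 divergent pairs (x axis), with standard errors as bars, at 12 h without amino acids, 3 h and 12 h without glucose. The H2ac11 and H2bc11 pair lies far apart in the first panel (-1.02 and -3.30) and close together in the last (-1.31 and -1.15).

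The machinery around histone mRNA was taken from 5 lists, chosen with earlier results of these data known. List counts stand beside the shares of all genes. At 12 h these were 34.9% higher and 32.0% lower without amino acids, and 30.4% higher and 28.0% lower without glucose. At 6 h without glucose they were 23.3% higher and 24.2% lower. Slbp, whose protein binds the stem-loop, stood at 128 and 136 CPM in the control and at 273 and 298 after 12 h without amino acids (log2 1.11, SE 0.06). Without glucose it was 121 and 127 and was not called (-0.10). Npat, a coactivator of histone transcription in S phase, rose by 0.88 and 0.58 (SE 0.07 each). Of 21 transcription and processing genes 10 were higher and 8 lower after 12 h without amino acids, and 8 higher and 4 lower without glucose. E2f1 and Hinfp, genes of transcription factors of the G1 to S transition, rose by 1.63 (SE 0.07) and 0.99 (SE 0.06) without amino acids and by 0.86 (SE 0.07) and 0.68 (SE 0.06) without glucose. Casp8ap2, a partner of NPAT in histone locus bodies, rose by 1.39 and 0.55 (SE 0.07 each), and the octamer-binding factor gene Pou2f1 changed by 0.88 and -0.85 (SE 0.09 each).

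Of 13 genes for histone mRNA translation and decay, 9 were higher and 4 lower after 12 h without amino acids and 5 higher and 2 lower without glucose. Eri1, a nuclease that trims the stem-loop end, rose by 0.53 and 0.24 (SE 0.07 each). The exonuclease gene Xrn1 rose by 0.79 (SE 0.07) without amino acids and was not called without glucose (-0.07). Of 20 histone chaperones 10 were higher and 6 lower, then 3 and 6. Asf1b, a chaperone of H3 and H4, rose by 0.96 (SE 0.06) without amino acids and was not called without glucose (0.05). Nap1l4, of a family of H2A and H2B chaperones, fell by 0.56 and 0.45 on the log2 scale (SE 0.06 each). Nasp, a chaperone of H1 and H3-H4, changed by 0.22 and -0.51 (SE 0.06 each).

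Of 26 S-phase genes 18 were higher and 4 lower after 12 h without amino acids, with a median of 0.51. Whether this bears on the 7 of 12 H2B genes called lower at that time was not tested. Cdc6 and Cdc45, which help load and activate the replicative helicase, rose by 1.65 and 1.64 (SE 0.06 each), whereas the thymidine kinase gene Tk1 changed by -1.52 (SE 0.06). After 6 h without glucose 2 were higher and 20 lower, and after 12 h 7 and 11. Ccna2, which encodes cyclin A2, changed by -0.11 (not called) at 12 h without amino acids and by -1.27 (SE 0.06) without glucose. Rrm2, a ribonucleotide reductase subunit, changed by 0.50 and -0.84 (SE 0.05 each).

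Of 11 replication-independent histone genes tested, 10 fell at 12 h without glucose and Macroh2a1 was not called (0.05). Without amino acids 5 were higher and 2 lower at that time. The linker histone genes H1f0 and H1f10 changed by -1.90 (SE 0.07) and -2.33 (SE 0.14) after 12 h without glucose, as H1f2 did (-2.72). After 12 h without amino acids H1f0 rose by 0.43 (SE 0.06) and H1f10 was not called (0.19). H3f3b changed by 1.39 and -0.34 (SE 0.06 each), and H2az1 by -0.81 and -0.40 (SE 0.05 each).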

How the data were processed

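Total RNA of 14 libraries in 7 groups of 2 was sequenced, and the authors deposited 1 table of raw read counts per transcript. Per the submitters' processing notes, reads were aligned to GRCm39 with STAR and bedtools was used. Versions, library selection, strand and the treatment of reads that map to several places are not given in the sources used here. Of the members' counts above 0, 71.6% were even, as were 67.3% of counts of 1 to 99 and 50.2% of the highest counts over all genes. How the counting produced this was not tested.

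Of 67457 rows, 58 named no gene and were left out (0.0% of reads). For each of 40800 genes the row with the most reads was used. Summing all rows instead lowers the members' CPM, with class sums at 0.49 to 0.62 of the values given. Genes were kept with edgeR's default filter (17696), libraries scaled by TMM (factors 0.931 to 1.16), and 7 group means fitted on all libraries with glmQLFit and glmQLFTest (edgeR 4.0.16, limma 3.58.1, R 4.3.3), with 7 residual degrees of freedom. P-values of 12 comparisons were adjusted by the Benjamini-Hochberg method within each. DESeq2 1.42.0, other scalings and filters, summed transcript rows, a GC and length offset and the omission of each library were alternatives. Tables and figures used Python 3.11.15, pandas 2.3.3, numpy 2.4.6 and matplotlib 3.10.9. Scripts were tested on simulated counts.

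Transcript models came from a GRCm38 annotation in which 46 of 46 members had rows of the same length, and promoters from RefSeq (GRCm38.p6). H2bc4, H2bc21, H2bc24, H3c1 and H3c7 had no promoter entry. Members and lists were chosen with earlier results of these data known. Genes named by rule were, per class, the 5 members with the highest mean CPM, per comparison the called members with the highest and lowest change, and per list up to 3 genes with the smallest p. Other genes were named after their values were seen. Replicate numbers do not pair the samples. Some genes of these lists are not reported here.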

Additional observations from a re-analysis of the deposited data

Results flagged for a closer look

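For 5 members the change from 3 to 12 h differed between both starvations by a test of the difference itself (amino acid change minus glucose change, log2 scale, edgeR's quasi-likelihood test, adjusted over all genes). H1f2, for linker histone H1.2, differed by 1.91 (SE 0.21, adjusted p = 1.1e-08). H2bc11 differed by -2.13 (SE 0.74, adjusted p = 0.0179), H2ac19 by 1.90 (SE 0.65, adjusted p = 0.0164), H2ac18 by 1.88 (SE 0.66, adjusted p = 0.0199) and H2ac12 by 1.50 (SE 0.57, adjusted p = 0.0318). Only the H1f2 difference held whichever single library was left out. H2bc11 lost the call without AA 3 h replicate 1 or AA 12 h replicate 1. H2ac18 and H2ac19, near copies that share reads, lost it without AA 3 h replicate 1, Glc 3 h replicate 2 or Glc 12 h replicate 1. H2ac12 lost it without 6 of the 8 libraries, and kept it without AA 12 h replicate 1 or Glc 3 h replicate 1.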

How the results depend on the processing

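No alternative reversed a call. Scaled to library totals, 1, 3 and 2 members were called at 3 h without amino acids and at 3 and 6 h without glucose, and the ratio of summed CPM to the control became 1.37 and 1.27 for H1 at 3 and 12 h without amino acids, 1.02 and 1.33 for H3 at those times and 1.50 for H3 at 6 h without glucose. That scaling moved the median of all genes to -0.24 at 3 h and 0.19 at 12 h without amino acids and to -0.21 at 3 h without glucose. With transcript rows summed, 3, 2 and 8 members were called at 3, 6 and 12 h without glucose and 9 between both starvations at 3 h, and the H3 ratio was 1.22 and 1.37 at 3 and 12 h without amino acids. A filter of 1 CPM in 4 libraries left 13 members, of which 8 were called at 12 h without amino acids, 9, 8 and 5 between both starvations at 3, 6 and 12 h, 5 and 9 from 3 to 12 h without amino acids and without glucose, and 2 for the difference of those changes. Without 1 library at a time, counts ranged from 1 to 2, 5 to 8 and 7 to 19 at 3, 6 and 12 h without amino acids and 2 to 8, 2 to 3 and 7 to 9 without glucose. They ranged from 3 to 13, 5 to 11 and 10 to 12 between both starvations, 9 to 13 and 13 to 21 from 3 to 12 h, and 1 to 6 for the difference. There the lone library of a group is assumed to vary like the other groups. The replicate block gave 3, 8, 18, 7, 4 and 15 calls against the control, and same-numbered libraries did not deviate together (21 correlations of -0.035 to 0.054), so the block combined with a GC and length offset was not run. DESeq2 called 2, 7, 14, 8, 3 and 15. With 833 to 2083 member reads per library, counts of single members are low, and the size of change that these depths could detect was not tested.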
